A study of Mus musculus with 24 samples.

Results

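Of the 26423 probe rows of the array, 76 carried a gene symbol that starts with Mrpl or Mrps and then a digit, and these rows stood for 67 of the 17742 genes measured. They are the mitochondrial ribosomal protein genes. The large subunit (Mrpl symbols) had 43 genes on 50 rows and the small subunit (Mrps symbols) 24 genes on 26 rows. A single row stood for 59 of the genes, 7 genes had 2 rows and Mrps10 had 3. The symbol alone set membership, but the gene family was taken up with earlier results of these data known. Where a gene had several rows, the row of highest mean stood for it. Mrps25 stayed, in both groups, under an intensity of 125, which is the 5th percentile of the array with the brightest dim end, and the other 66 genes were above that level in at least 1 group.

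Mitochondria keep a small genome of their own, whose messenger RNAs encode membrane subunits of the respiratory chain and of ATP synthase. These messages are translated inside the organelle by a dedicated ribosome. Its ribosomal RNAs are transcribed from mitochondrial DNA, while its proteins are encoded in the nucleus, made in the cytosol and imported. The large subunit holds the centre where peptide bonds form, and the small subunit binds and decodes the messenger RNA. Some of the proteins descend from proteins of the bacterial ribosome, and others are specific to mitochondria. Skeletal muscle depends on this machinery because its fibres draw on oxidative phosphorylation for contraction.

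The study asked how loss of HIRA, the chaperone that deposits histone variant H3.3 outside DNA replication, changes transcripts of mouse skeletal muscle. RNA was extracted with Trizol from the tibialis anterior of animals aged 6 months, on a mixed C57BL6/J;129S1/SvImJ background. The 4 control animals were Myf6 cre/+; Hira flox/+ and the 4 knockout animals were Myf6 cre/+; Hira flox/-, with 3 hybridisations per animal and 24 arrays in all. Both groups carried the Cre recombinase, which is expressed from the Myf6 locus in muscle fibres, so control fibres kept 1 intact copy of Hira by genotype. In the knockout animals the null allele was present in all cells, not in fibres alone. Animals are numbered 1 to 4 within a group, and these numbers pair nothing across groups. Nothing in the labels says how the animals were bred or caged, so p-values measure the spread between these 4 and 4 animals.

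Levels are log2 intensities averaged over the 3 hybridisations of an animal. Hira itself, on its only probe, read 8.85, 9.11, 8.92 and 8.99 in control animals 1 to 4 and 8.63, 9.31, 8.52 and 8.83 in knockout animals 1 to 4. The groups overlapped (difference -0.15 ± 0.17, SE; adjusted p = 0.623, limma), and the sources used here do not place the probe inside or outside the deleted part, so this probe does not check the labels. Fibre genes marked the tissue as labelled: the 9 measured fibre markers ran from Neb, at 17.86 in the controls and 17.40 in the knockout animals, to Tnni2, at 18.65 and 18.53. The 24 arrays had been scaled to a common median of 626 by the authors, and their 5th percentiles ran from -2.35 to 125, which shows that dim probes were not brought to 1 level across arrays. In a bulk muscle extract, fewer cells of a type and less RNA per cell cannot be told apart.

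Few single mitochondrial ribosomal protein genes passed the test, and those that did were lower in the knockout. In limma's moderated test with Benjamini-Hochberg adjustment over all 17742 genes and a threshold of 0.05, 4 of the 67 genes fell and 0 rose. That is 5.97% lower, beside 5.01% of all genes (888 genes), and 0 higher, beside 4.28% of all genes (759 genes). In either direction 9.28% of all genes passed. The share of members past the threshold was thus near that of all genes. At an unadjusted p under 0.05, 18 members (26.9%) were lower and 3 (4.48%) were higher, against 14.6% and 9.44% of all genes. In 16 members (23.9%) all 4 knockout animals lay below all 4 control animals, against 10.2% of all genes, and in 2 members (2.99%) they lay above, against 7.24% of all genes. The 8834 genes with a level above 10 on the log2 scale had larger shares than all genes. Of these, 17.1% were lower and 11.2% higher at an unadjusted p under 0.05, and 1219 lay lower and 795 higher without overlap. The 67 members are not independent of one another, since they vary together between animals, and no test was made of these counts. The count of 4 fell to 1 without control 4, without knockout 3 or without the hybridisations numbered 2, and to 2 without control 1 or knockout 1; Mrps6 was called in each of these fits.

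Differences were small. The median log2 difference, knockout minus control, was -0.13 over the 67 members, -0.066 over all genes and -0.054 over the 8834 genes with a level above 10 on the log2 scale. The members ran from -0.55 to 0.35, and 35 of them lay within 0.2 of 0. A difference below 0 was found in 47 of 67 members (70.1%) and in 59.7% of all genes. The plot of differences by subunit shows this lean to the left in both subunits. Under quantile normalization the median over all genes was -0.014 and under cyclic loess -0.003, and 8 members changed sign under each.

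**Figure D1:**
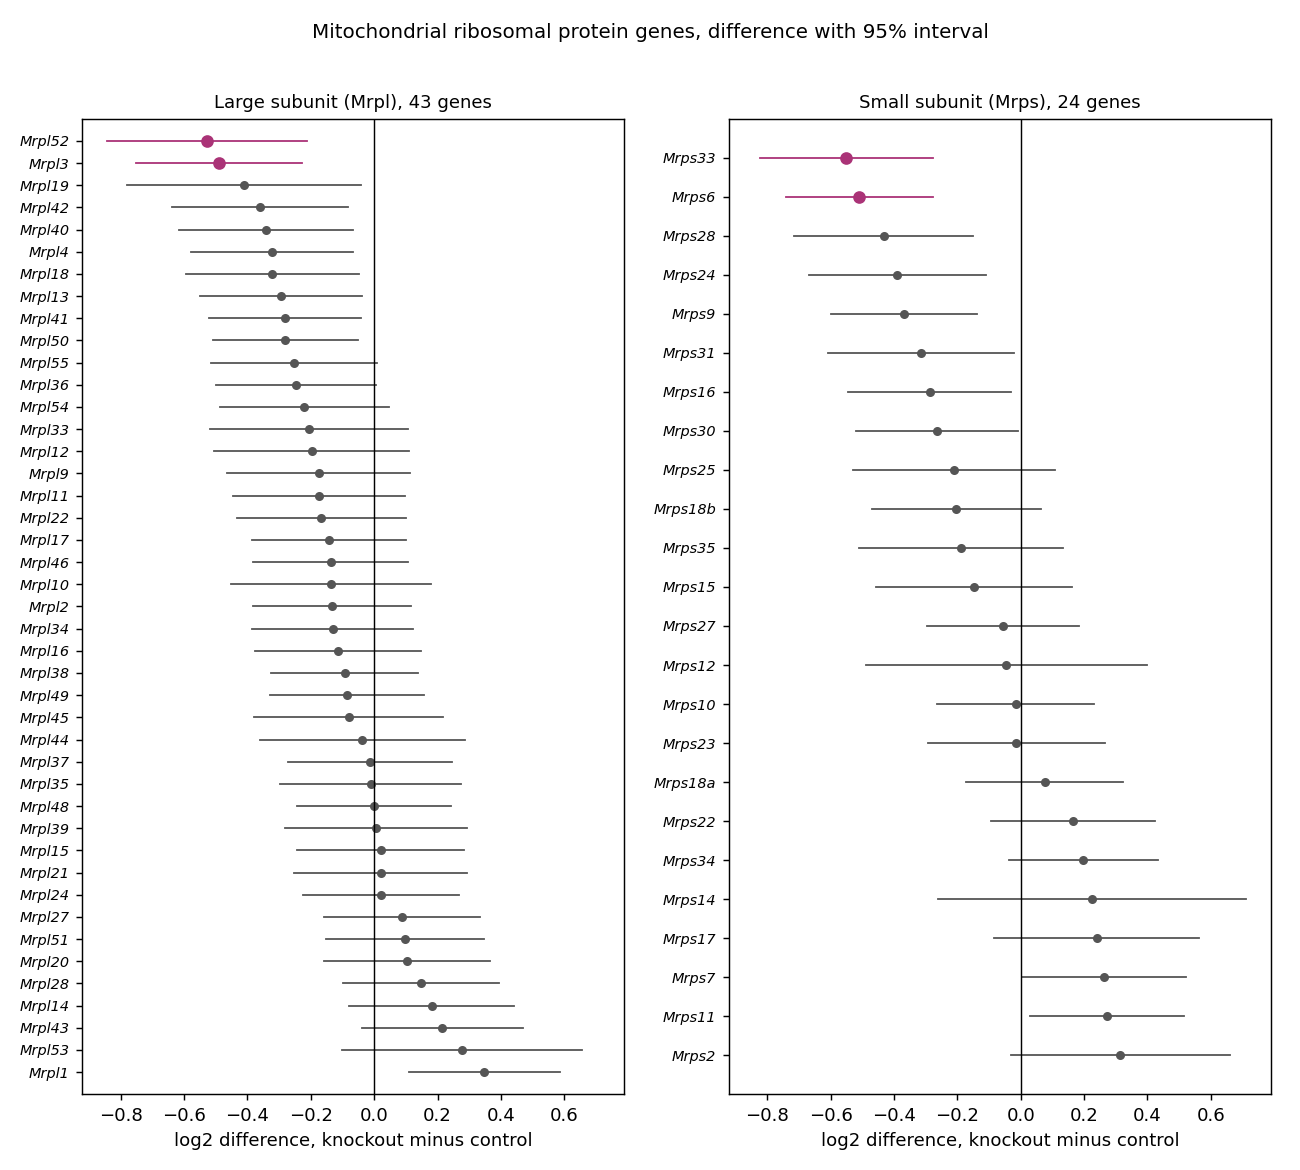
Log2 difference, knockout minus control (x axis), with its 95% interval from limma for each of the 43 large subunit genes (left) and the 24 small subunit genes (right), n = 4 animals per group; large coloured points are the 4 genes with an adjusted p under 0.05. All 4 lie below 0, at -0.55 to -0.49, and the intervals of most other genes include 0.

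In the large subunit, 2 of 43 genes passed the test, Mrpl3 and Mrpl52. Mrpl3 (mouse chromosome 9) encodes the counterpart of bacterial L3, which reaches towards the peptide-bond centre. It read 13.70, 13.58, 13.41 and 13.50 in the control animals and 13.10, 12.86, 13.08 and 13.19 in the knockout animals. Every knockout animal was lower than every control animal, and the closest pair, control 3 and knockout 4, was 13.41 against 13.19. Mrpl3 fell by 0.49 on the log2 scale (SE 0.12, 95% interval -0.75 to -0.23, 1.40-fold), with an adjusted p of 0.0264 in limma and an exact two-sided permutation p of 0.0286, the smallest that 4 against 4 animals can give. The limma call was lost when any of control 1, control 4, knockout 1, knockout 2 or knockout 3 was left out, with adjusted p up to 0.073, or the hybridisations numbered 2 (adjusted p = 0.106).

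Mrpl52 (chromosome 14) encodes a large subunit protein specific to mitochondria. It read 14.57, 15.11, 14.81 and 14.90 in the control animals and 14.42, 14.51, 14.10 and 14.25 in the knockout animals. The groups did not overlap, but control 1 at 14.57 lay just above knockout 2 at 14.51. Mrpl52 fell by 0.53 (SE 0.14, 95% interval -0.84 to -0.21, 1.44-fold; adjusted p = 0.0427 in limma, exact permutation p = 0.0286). Leaving out any animal other than control 1 or knockout 2 ended this call, with adjusted p up to 0.129, as did leaving out the hybridisations numbered 1 (adjusted p = 0.0755) or those numbered 2 (adjusted p = 0.0772), testing every probe row as a feature of its own, taking the median of the hybridisations or raising the floor on low values.

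In the small subunit, 2 of 24 genes passed, Mrps6 and Mrps33. Mrps6 (chromosome 16) encodes the counterpart of bacterial S6. It read 13.87, 14.11, 13.96 and 14.01 in the control animals and 13.53, 13.51, 13.46 and 13.40 in the knockout animals. The knockout animals lay close together (SD 0.06), and all were lower than the lowest control. Mrps6 fell by 0.51 (SE 0.11, 95% interval -0.74 to -0.28, 1.42-fold; adjusted p = 0.0131 in limma, exact permutation p = 0.0286). Of the 4 called genes it alone kept its call whichever single animal was left out, with adjusted p of 0.0221 to 0.0452 in limma.

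Mrps33 (chromosome 6) encodes a small subunit protein specific to mitochondria. It read 10.45, 10.37, 10.10 and 10.35 in the control animals and 9.81, 9.73, 9.60 and 9.94 in the knockout animals. Control 3 was the lowest control and knockout 4 the highest knockout, and they did not meet. Mrps33 fell by 0.55 (SE 0.12, 95% interval -0.82 to -0.28, 1.47-fold; adjusted p = 0.0193 in limma, exact permutation p = 0.0286). The limma call was lost without control 1, control 4 or knockout 3, with adjusted p up to 0.0668. It was also lost without the hybridisations numbered 2.

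The labels' animal numbers fall in 2 runs with 2 animals of each genotype in each, animals 1 and 2 of a group in the lower run and animals 3 and 4 in the higher one. What the runs stand for is not stated. The 4 called genes were lower in the knockout in both. Mrps6 differed by -0.47 in the lower run and -0.55 in the higher, Mrps33 by -0.64 and -0.46, Mrpl3 by -0.66 and -0.32, and Mrpl52 by -0.37 and -0.68. With 2 animals against 2, none of the 4 passed limma's threshold within a run, and the smallest adjusted p was 0.0596 for Mrpl52 in the higher run. Over all members, the difference was below 0 in both runs in 35 genes (52.2%) and above 0 in both in 15 (22.4%), against 37.8% and 23.4% of all genes.

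**Figure D2:**
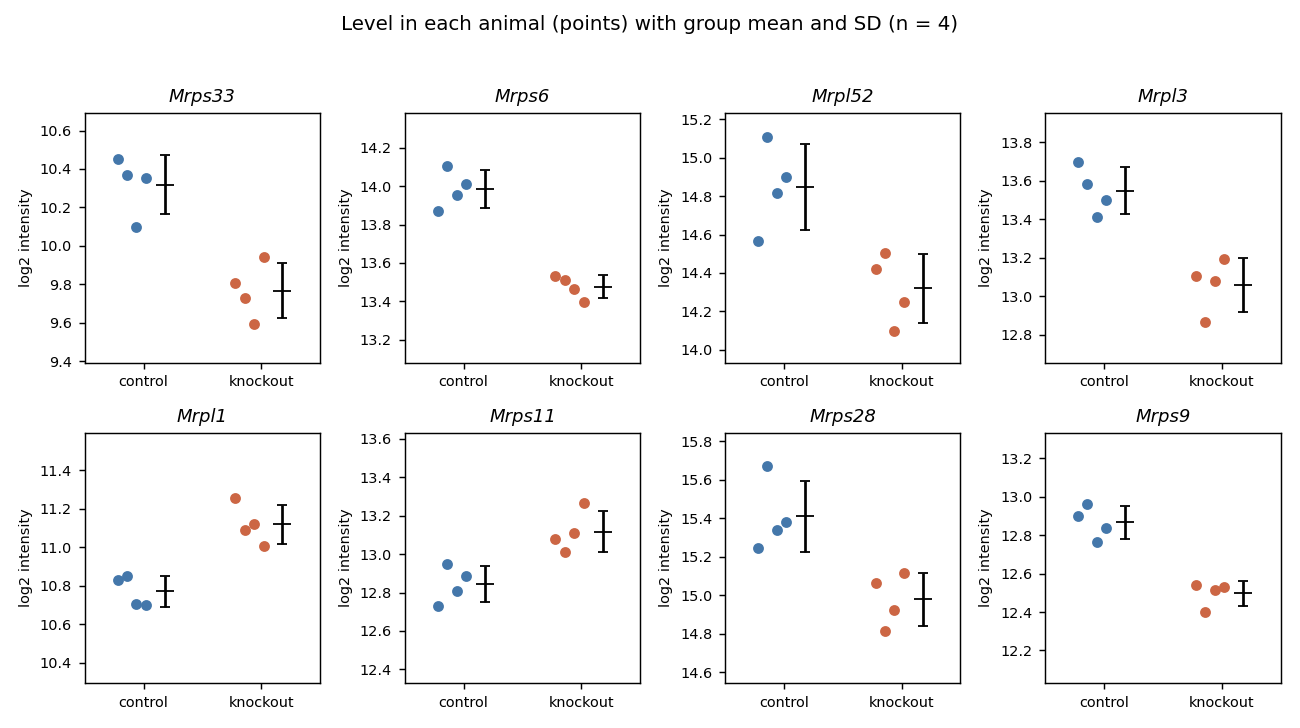
Log2 intensity (y axis, each panel spanning the same range) of 8 mitochondrial ribosomal protein genes in the 4 control (blue) and 4 knockout (orange) animals, each point the mean of 3 hybridisations, with the group mean and SD (n = 4) in black. Mrps33, Mrps6, Mrpl52 and Mrpl3 passed the test and lie lower in the knockout, Mrpl1 and Mrps11 lie higher without passing it, and Mrps28 and Mrps9 lie lower without passing it.

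The stretches before and around the start of the 4 called genes, and of the 2 members whose knockout animals all lay above the controls, Mrpl1 and Mrps11, are printed because these 6 genes carry the described differences. They come from RefSeq (GRCm38.p6), read 5′ to 3′ on the gene's strand, and hold 250 bases before the start and the first 25 after it. Capitals mark exact matches, on either strand, to the motifs named in the next paragraph.
Mrpl3, chr9:105053018-105053292, plus strand: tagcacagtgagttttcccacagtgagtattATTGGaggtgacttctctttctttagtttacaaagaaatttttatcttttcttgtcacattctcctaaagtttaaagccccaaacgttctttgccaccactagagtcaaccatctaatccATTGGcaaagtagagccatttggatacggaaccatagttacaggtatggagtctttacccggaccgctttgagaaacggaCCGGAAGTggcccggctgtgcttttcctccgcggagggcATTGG
Mrpl52, chr14:54426659-54426933, plus strand: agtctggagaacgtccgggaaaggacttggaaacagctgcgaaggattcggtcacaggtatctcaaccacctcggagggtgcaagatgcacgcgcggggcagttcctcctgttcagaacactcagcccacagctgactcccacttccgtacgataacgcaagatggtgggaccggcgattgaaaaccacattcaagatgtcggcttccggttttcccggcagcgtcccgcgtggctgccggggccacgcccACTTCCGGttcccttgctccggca
Mrps6, chr16:92058086-92058360, plus strand: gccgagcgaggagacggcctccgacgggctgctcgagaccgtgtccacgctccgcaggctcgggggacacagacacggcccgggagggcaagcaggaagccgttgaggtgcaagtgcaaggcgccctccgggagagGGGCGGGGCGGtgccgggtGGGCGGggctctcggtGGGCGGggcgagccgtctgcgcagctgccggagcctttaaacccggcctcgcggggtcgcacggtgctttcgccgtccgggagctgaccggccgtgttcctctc
Mrps33, chr6:39810912-39811186, minus strand: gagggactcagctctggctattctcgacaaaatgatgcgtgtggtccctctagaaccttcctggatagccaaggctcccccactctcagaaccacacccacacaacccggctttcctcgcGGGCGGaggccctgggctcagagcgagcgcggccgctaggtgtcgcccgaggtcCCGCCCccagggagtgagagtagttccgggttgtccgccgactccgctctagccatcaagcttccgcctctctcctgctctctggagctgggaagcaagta
Mrpl1, chr5:96209865-96210139, plus strand: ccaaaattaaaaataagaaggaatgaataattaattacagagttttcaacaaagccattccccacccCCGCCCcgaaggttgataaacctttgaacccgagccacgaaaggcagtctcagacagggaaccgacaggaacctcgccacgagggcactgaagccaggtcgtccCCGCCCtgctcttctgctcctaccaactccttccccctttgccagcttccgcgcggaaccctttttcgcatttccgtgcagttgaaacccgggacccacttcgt
Mrps11, chr7:78782881-78783155, plus strand: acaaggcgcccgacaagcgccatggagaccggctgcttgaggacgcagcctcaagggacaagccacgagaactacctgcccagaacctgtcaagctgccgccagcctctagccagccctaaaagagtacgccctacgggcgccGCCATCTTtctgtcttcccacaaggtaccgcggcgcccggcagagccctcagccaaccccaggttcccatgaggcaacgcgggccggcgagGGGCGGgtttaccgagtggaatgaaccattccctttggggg

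These promoters differ in kind. The Mrpl3 and Mrpl52 stretches each hold 1 ETS motif (CCGGAAGT) close to the start, in Mrpl52 on the other strand, and Mrpl3 also holds 3 CCAAT boxes (CCAAT), all on the other strand. The Mrps6 stretch, at 73.8% G and C, has a run of 4 Sp1 motifs (GGGCGG), 2 of which overlap. Mrps33 and Mrpl1 hold Sp1 motifs as well, and Mrps11 holds a YY1 motif (AAGATGGC) and an Sp1 motif. None of the 6 stretches holds the NRF1 motif (CGCATGCG), the E-box (CACGTG) or the TATA box (TATAAA); a match or its absence describes letters in a window and not the binding of a factor.

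Windows of 300 bases were found for 58 members (64 windows), and none were used for Mrpl4, Mrpl13, Mrpl15, Mrpl19, Mrpl38, Mrpl54, Mrps28, Mrps34 and Mrps35. On either strand, 17.2% of member windows held the YY1 motif, against 3.05% of the 21263 windows of protein-coding genes and 2.75% of all 32851 windows. The ETS motif was in 15.6% of member windows, against 5.15% and 3.89%. The NRF1 motif was in 9.38%, against 2.52% and 1.87%. NRF1, the ETS factor NRF2 and YY1 are known regulators of nuclear genes for mitochondrial proteins, and each of these motifs was several times as frequent in member windows as in the windows of protein-coding genes. NRF1 and E-box letters read the same on both strands, and no motif of the set contains another.

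The general motifs differed less. Sp1 was in 32 of 64 member windows (50%), against 46.2% and 35.7%, and CCAAT in 42.2%, against 38.2% and 37.4%. The E-box was in 9.38%, against 7.84% and 7.15%, and the TATA box in 7.81%, against 12.6% and 13.6%. Median G and C content was 58.5% in member windows and 56.3% in those of protein-coding genes. The YY1 motif lay in windows of 11 members (Mrpl35, Mrpl36, Mrpl37, Mrpl42, Mrpl49, Mrps7, Mrps11, Mrps12, Mrps18a, Mrps24 and Mrps27), whose median difference was -0.045 against -0.14 for the 47 without it. The 10 members with the ETS motif had a median difference of -0.028 and the 48 without it -0.13. The 6 members with the NRF1 motif had a median of -0.15 and the other 52 one of -0.083. The 24 members with the CCAAT box had a median of -0.19 and the 34 without it -0.068. Under quantile normalization and cyclic loess the medians of the YY1 group (0.012 and 0.023) and of the ETS group (0.028 and 0.046) lay above 0. The members without these motifs also moved up, to -0.084 and -0.063 for YY1 and to -0.084 and -0.058 for ETS. The NRF1 group stayed below 0, at -0.118 and -0.099. The motif groups were not tested against each other.

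Among members that did not pass the test, 3 small subunit genes came closest on the lower side. Mrps9, the counterpart of bacterial S9, read 12.90, 12.96, 12.77 and 12.84 in the control animals and 12.54, 12.40, 12.52 and 12.53 in the knockout animals, a difference of -0.37 ± 0.11 (SE; adjusted p = 0.0514 in limma). Mrps28, a relative of bacterial S1, read 15.25, 15.67, 15.34 and 15.38 against 15.06, 14.81, 14.92 and 15.12, a difference of -0.43 ± 0.13 (adjusted p = 0.0605 in limma). Mrps24, the counterpart of bacterial S3 at the entry of the messenger RNA, read 15.16, 15.60, 15.33 and 15.46 against 15.14, 15.04, 14.91 and 14.90, a difference of -0.39 ± 0.13 (adjusted p = 0.0811 in limma). In all 3 genes the groups did not overlap, although in Mrps24 control 1 and knockout 1 differed by only a few hundredths. Mrps9 passed under 15 of 28 alternative settings, quantile normalization, cyclic loess and median centring among them, and under none of those that leave out an animal.

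In the large subunit, Mrpl42, Mrpl40 and Mrpl4 did not overlap between groups and differed by 0.3 or more without passing. Mrpl42, a protein specific to mitochondria, differed by -0.36 ± 0.13 (adjusted p = 0.104 in limma), with control animals between 16.85 and 17.25 and knockout animals between 16.45 and 16.73. Mrpl4, the counterpart of bacterial L4, which lines the exit tunnel, differed by -0.32 ± 0.12 (adjusted p = 0.113 in limma), with control animals between 13.95 and 14.08 and knockout animals between 13.50 and 13.89. Mrpl19, the counterpart of bacterial L19, differed by -0.41 ± 0.17 (adjusted p = 0.159 in limma), but here the groups met: knockout 4 at 10.49 was higher than control 2 at 10.25 and control 3 at 10.39, and the other 3 knockout animals lay between 9.72 and 10.02.

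Mrpl40, a protein specific to mitochondria, is the direct neighbour of Hira on chromosome 16, with 0 protein-coding genes between them in the RefSeq gene order. It read 13.46, 13.74, 13.38 and 13.45 in the control animals and 13.25, 13.10, 13.00 and 13.32 in the knockout animals. All 4 knockout animals were lower, and the difference of -0.34 ± 0.13 did not pass the test (adjusted p = 0.118 in limma). The other 2 members on that chromosome, Mrps6 and Mrpl39, lie 459 and 355 protein-coding genes away from Hira, and differed by -0.51 and 0.007. The part of the neighbouring null allele in the value of Mrpl40 was not tested.

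No member was called higher. The largest positive difference was in Mrpl1, the counterpart of bacterial L1, which forms the stalk beside the exit of spent tRNA. It read 10.83, 10.85, 10.70 and 10.70 in the control animals and 11.26, 11.09, 11.12 and 11.01 in the knockout animals. All knockout animals were higher, by 0.35 ± 0.11 (adjusted p = 0.0701 in limma). It passed under 9 of 28 alternative settings, quantile normalization and cyclic loess among them. A further Mrpl1 row, which was dim, differed by -0.083.

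Mrps11, the counterpart of bacterial S11, was the other member with all knockout animals above all controls. It read 12.73, 12.95, 12.81 and 12.89 against 13.08, 13.01, 13.11 and 13.27, a difference of 0.27 ± 0.11 (adjusted p = 0.159 in limma). Mrps2 differed by 0.31 ± 0.16 (adjusted p = 0.248 in limma), with knockout 4 at 12.54 below all 4 controls and the other 3 knockout animals above them. Mrps7, which organises the head of the small subunit as bacterial S7 does, differed by 0.26 ± 0.12 (adjusted p = 0.20 in limma). Mrpl53 and Mrpl43, both specific to mitochondria, differed by 0.28 ± 0.17 and 0.21 ± 0.12 (adjusted p = 0.352 and 0.282 in limma). The groups overlapped in these last 4 genes.

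The other genes whose knockout animals all lay below the controls were Mrpl13, Mrpl36, Mrpl41, Mrpl50, Mrps16 and Mrps30, with differences of -0.29 to -0.25 and adjusted p in limma of 0.125 to 0.216. Mrps30 and Mrps18a are named for the small subunit but sit in the large subunit in structures of the mammalian mitochondrial ribosome. Mrps30 differed by -0.26 ± 0.12 and Mrps18a by 0.076 ± 0.11. Mrps18b, its relative in the small subunit, differed by -0.20 ± 0.12. Counting Mrps18a and Mrps30 with the large subunit left the medians at -0.13 for the large and -0.10 for the small subunit. Mrps18c and Mrps36 were not analysed here. Mrps25, dim in both groups, differed by -0.21 ± 0.15.

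Rows of the same gene differed in sign in Mrpl1, Mrpl11, Mrpl17, Mrpl41, Mrpl49 and Mrpl51. The brighter Mrpl17 row differed by -0.14 and overlapped between groups, while its dimmer row read 9.15, 9.27, 9.07 and 9.13 in the control animals and 9.44, 9.52, 9.45 and 9.52 in the knockout animals, a difference of 0.33 in the other direction with no overlap. Mrpl41 differed by -0.28 on its brighter row, without overlap, and by 0.16 on its dimmer row. Mrpl11 gave -0.17 and 0.34, Mrpl49 -0.086 and 0.096, and Mrpl51 0.097 and -0.084. The rows of Mrpl48 and Mrps10, at -0.12 or nearer to 0, showed little difference. None of the 4 called genes had a further row that could check it.

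The medians of the subunits lay close together. The median difference was -0.13 over the 43 large subunit genes and -0.10 over the 24 small subunit genes. In the large subunit 9 genes (20.9%) lay lower without overlap and 1 higher, and in the small subunit 7 (29.2%) and 1, against 10.2% of all genes lower and 7.24% higher. The differences were more spread in the small subunit (SD 0.27) than in the large (SD 0.20): 9 of 24 small subunit genes and 26 of 43 large subunit genes lay within 0.2 of 0. By descent, the 26 large subunit genes of bacterial type had a median of -0.14 and the 17 specific to mitochondria -0.086. In the small subunit, the 13 of bacterial type had a median of -0.045 and the 11 others -0.19; these 11 include Mrps18a and Mrps18b, which belong to the S18 family. The bacterial-type small subunit median turned to 0.027 under quantile normalization and 0.050 under cyclic loess.

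In each animal, a member's deviation was taken from its mean over the 4 controls, and the median over a subunit's genes gave 1 value per animal. For the large subunit it was -0.019, 0.137, -0.080 and -0.017 in control animals 1 to 4 and -0.128, -0.114, -0.224 and -0.037 in knockout animals 1 to 4. For the small subunit it was -0.084, 0.144, -0.077 and -0.012 in the controls and -0.138, -0.014, -0.188 and -0.225 in the knockout animals. Control 2 stood above the other controls in both subunits, and the groups overlapped in both. The median over all genes was 0.002 to 0.013 in the controls and -0.102 to -0.016 in the knockout animals, lower in all 4 knockout animals than in any control. Because deviations are taken from the controls' own mean, the controls lie around 0 by construction, and this contrast carries no test.

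Large minus small, the per-animal median was 0.065, -0.007, -0.003 and -0.005 in the controls and 0.010, -0.100, -0.035 and 0.188 in the knockout animals. The group means were 0.012 ± 0.035 (SD, n = 4) and 0.016 ± 0.123 (SD, n = 4). The means lay far closer together than the knockout animals did among themselves. Knockout 4 had the widest gap, with the small subunit lowest of all animals and the large subunit near the controls. The plot of subunit medians by animal shows the subunits side by side in control animals 2 to 4 and knockout animals 1 and 3, and apart in knockout 4.

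**Figure D3:**
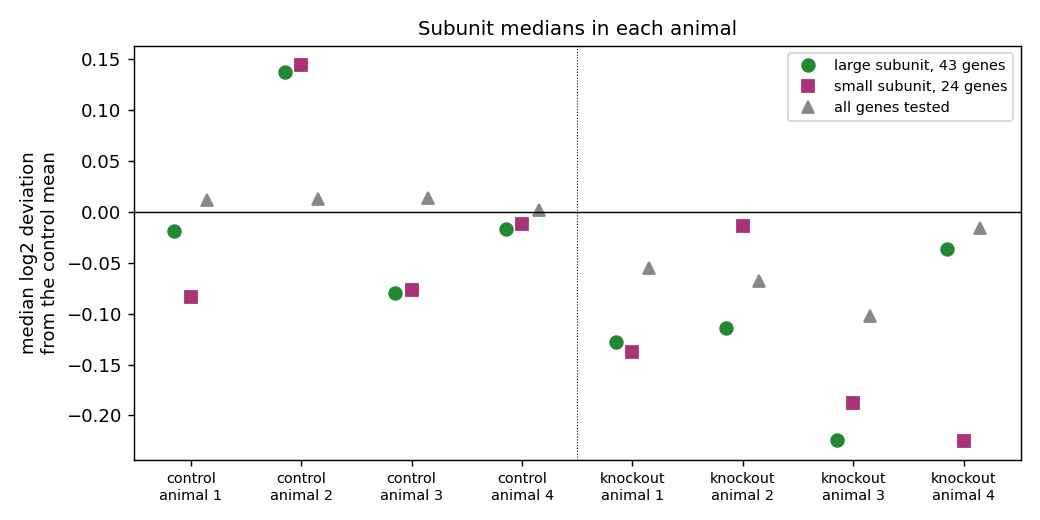
Median log2 deviation from the control mean (y axis) over the 43 large subunit genes (green circles), the 24 small subunit genes (purple squares) and all genes tested (grey triangles) in each of the 8 animals (x axis). Control 2 lies highest for both subunits (0.137 and 0.144), and knockout 4 has the widest gap between them (-0.037 and -0.225).

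Members varied together between animals. Group means were removed, and then each animal's median over all genes. The median Pearson correlation over the 8 animals was then 0.27 between large subunit genes, 0.32 between small subunit genes and 0.26 across the subunits. It was -0.006 for a sample of all genes and 0.17 for a sample of genes above 10 on the log2 scale. All pairs share the same 24 arrays and their scaling, so these values describe the arrays and carry no test. In control 2, 11 of the 67 members lay below the control mean, whereas in control 3 57 did.

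Single hybridisations moved the subunit medians by more than the groups differed. In control 3 the large subunit median was -0.288, 0.096 and -0.152 in its 3 hybridisations, and in knockout 2 it was -0.349, -0.041 and -0.046. The SD between hybridisations of an animal was 0.15 for the median member and 0.18 for the median gene. The first hybridisation of control 3 was also 1 of the 2 arrays with the highest 5th percentile. Without these 2 arrays, 7 members passed on the lower side: Mrpl3, Mrpl42, Mrpl52, Mrps6, Mrps9, Mrps28 and Mrps33. The part of array background in the member medians was not tested further.

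Genes that act with the mitochondrial ribosome were read from lists by role. The first holds 6 measured subunits whose symbols do not start with Mrpl or Mrps in the array annotation (Dap3, Ptcd3, Chchd1, Gadd45gip1, Mrpl57 and Mrpl58). None passed in either direction, beside 9.28% of all genes, and their median was -0.021, which turned to 0.042 under quantile normalization and 0.064 under cyclic loess. Their smallest p-values were those of Gadd45gip1 (-0.14 ± 0.14) and Mrpl58 (0.092 ± 0.11), a factor that frees stalled ribosomes. At an unadjusted p under 0.05 the count was also 0.

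Of 15 translation factors, which start, extend and end the protein chain and insert it into the membrane, 0 passed, and at an unadjusted p under 0.05 the count was 5 lower (33.3%, against 14.6% of all genes) and 0 higher (against 9.44%). The median was -0.10. The closest were initiation factor Mtif3, with control animals between 7.84 and 8.10 and knockout animals between 7.30 and 7.81 (-0.46 ± 0.13; adjusted p = 0.054 in limma), and Gfm2, which helps to split the ribosome after termination, with control animals between 13.30 and 13.79 and knockout animals between 12.95 and 13.25 (-0.44 ± 0.14; adjusted p = 0.0755 in limma). Neither gene overlapped between groups. Under quantile normalization and under cyclic loess, 2 of the 15 passed on the lower side.

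Of 26 assembly factors and enzymes that modify the ribosomal RNA, 3 rose and 2 fell, beside 4.28% and 5.01% of all genes. The list median was -0.067. Under quantile normalization 3 of the list passed as higher and 4 as lower. Rpusd3, of the pseudouridine synthase family, rose by 0.51 ± 0.12 (adjusted p = 0.025 in limma). Ngrn, a factor needed for the large ribosomal RNA, rose by 0.43 ± 0.12 (0.18 on its other row), and Nsun4, a methyltransferase that joins subunit assembly, by 0.41 ± 0.11 (-0.23 on its other row). Mterf3, which acts on mitochondrial transcription and ribosome biogenesis, fell by 0.49 ± 0.11 (adjusted p = 0.017 in limma), and Malsu1, which binds the assembling large subunit, by 0.50 ± 0.14. Of these 5 calls, that of Mterf3 was lost without knockout 3, without the hybridisations numbered 2 and in each run of animal numbers alone, and the others were lost when any of 5 to 7 animals was left out.

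The 19 measured genes that charge mitochondrial tRNAs held the largest differences of the lists by role. Of these, 5 fell and 1 rose, beside 5.01% and 4.28% of all genes, with a list median of -0.10. Fars2, the phenylalanine enzyme, read 13.64, 13.69, 13.41 and 13.52 in the control animals and 12.80, 12.53, 12.50 and 12.52 in the knockout animals. It fell by 0.98 ± 0.12 (1.97-fold; adjusted p = 0.000599 in limma), with the knockout animals well clear of the controls, and its other 2 rows gave -1.16 and -1.37. Cars2, the cysteine enzyme, fell by 0.79 ± 0.12 (adjusted p = 0.00295 in limma), with control animals between 12.52 and 12.70 and knockout animals between 11.56 and 12.03. Rars2, the arginine enzyme, fell by 0.52 ± 0.11 (adjusted p = 0.0148 in limma).

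The calls of Fars2, Cars2 and Rars2 held whichever animal was left out, and that of Rars2 was lost without the hybridisations numbered 2 (adjusted p = 0.0518 in limma). Gatb, a subunit of the enzyme complex that makes glutaminyl-tRNA in mitochondria, rose by 0.57 ± 0.14 (adjusted p = 0.0237 in limma). Qrsl1, the catalytic subunit of the same complex, fell by 0.51 ± 0.13 (adjusted p = 0.0328 in limma), so members of 1 complex passed in opposite directions. Pars2, the proline enzyme, fell by 0.47 ± 0.13. The calls of Gatb, Qrsl1 and Pars2 were lost without any of 3, 6 and 7 animals.

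Of 17 genes that transcribe, process or keep mitochondrial DNA and RNA, 5 fell and 1 rose, beside 5.01% and 4.28% of all genes. The list median was -0.28. The median was -0.49 in the lower run of animal numbers alone, -0.064 in the higher and -0.15 with array weights. Without control 1, knockout 2, knockout 3 or the hybridisations numbered 2, 0 of the 5 lower calls were left. Top1mt, the mitochondrial topoisomerase, fell by 0.49 ± 0.12, and Mterf2 by 0.49 ± 0.12. Prorp and Hsd17b10, which belong to the enzyme that cuts tRNAs from mitochondrial transcripts, fell by 0.45 ± 0.11 and 0.47 ± 0.13, and Tfb2m, which opens mitochondrial promoters, by 0.43 ± 0.12. Ssbp1, which binds single-stranded mitochondrial DNA, rose by 0.48 ± 0.11. Adjusted p in limma ran from 0.0233 to 0.0414 over these 6 genes, and each call was lost when any of 4 to 7 animals was left out. Tfam and Polrmt, which package the genome and transcribe it, differed by 0.064 ± 0.14 and 0.15 ± 0.13 and did not pass.

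Of 11 nuclear regulators of mitochondrial biogenesis, 0 passed in either direction, also at an unadjusted p under 0.05, and the median was 0.037. With array weights 1 of the 11 passed as higher. The smallest p-values were those of Gabpa, a subunit of the ETS factor NRF2 (-0.28 ± 0.14), and Ppargc1b, a coactivator (0.25 ± 0.13). Nrf1, the factor of the NRF1 motif, differed by 0.25 ± 0.13 (adjusted p = 0.279 in limma), and Ppargc1a by 0.14 ± 0.19 (adjusted p = 0.683 in limma). Further Nrf1 rows gave 0.012 and -0.09. Gabpb1 differed by -0.12 ± 0.13, and by -0.43 ± 0.12 on its other row. Of the 13 proteins encoded in mitochondrial DNA, the products of this ribosome, 0 were matched to a row, and their transcripts were not analysed here.

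**Figure D4:**
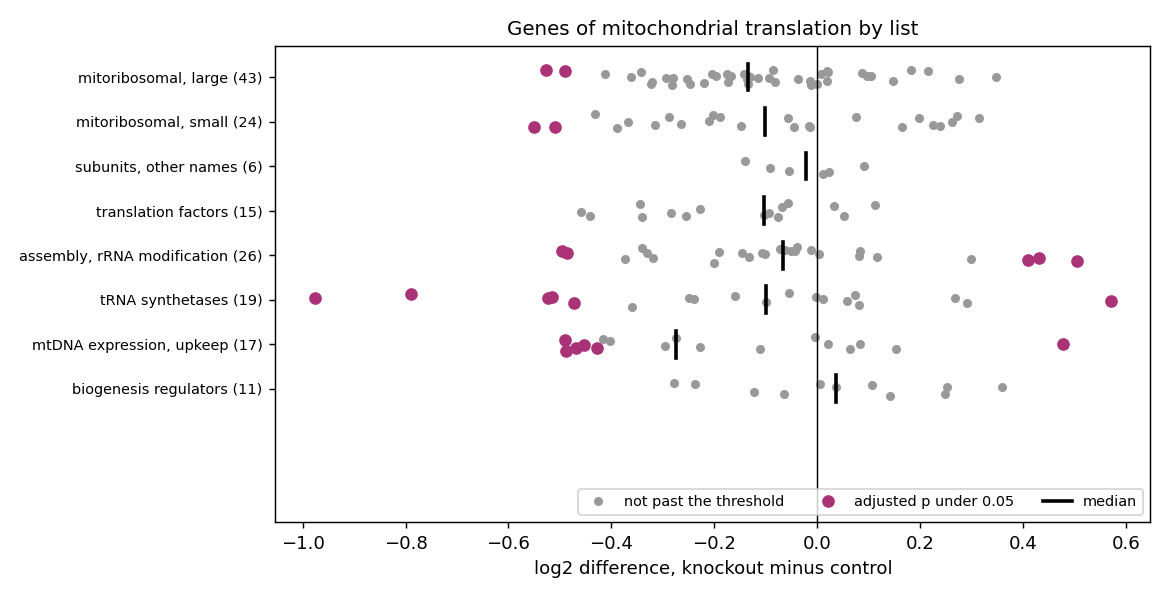
Log2 difference, knockout minus control (x axis), of each gene of the mitochondrial ribosome and of 6 lists of related genes (number of measured genes in brackets); grey points did not pass, large purple points had an adjusted p under 0.05 in limma, and black bars are list medians. The 4 ribosomal protein genes that passed lie between -0.55 and -0.49, while the tRNA synthetase list reaches -0.98 and 0.57.

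Markers of other cell types also differed between the groups. Their counts stand beside 5.01% of all genes called lower and 4.28% called higher. Of 9 endothelial markers 3 fell (median -0.44), and their summed intensity was 68349 to 89620 in the controls and 46506 to 59595 in the knockout animals. Of 6 smooth muscle and pericyte markers 3 fell (summed intensity 35243 to 43969 against 25891 to 31081). Of 6 adipocyte markers 3 fell (6315 to 15456 against 4746 to 5764). Of 5 Schwann cell markers 2 fell, and the ranges of their sums overlapped slightly (23354 to 32844 against 18190 to 23562). For the 7 macrophage markers the ranges overlapped (14042 to 31908 against 18456 to 42480), as they did for 6 fibroblast markers, of which 0 passed (150086 to 226908 against 134248 to 253201). Of the macrophage markers 1 fell, Cd163, a call lost without any of 6 animals and under quantile normalization, cyclic loess and median centring. The 2 measured red cell markers summed to 2814 to 3916 against 1189 to 2586, and 1 of them fell, but not without control 3 or knockout 3. The Schwann cell count was 0 without control 3, knockout 3 or knockout 4. The endothelial count was 2 without any of 6 animals and the adipocyte count 2 to 4 without 1 animal, and a higher floor ended the Schwann cell, adipocyte, macrophage and red cell calls. The smooth muscle count stayed at 3 without any 1 animal.

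Within the fibre, 3 of 5 markers of slow oxidative fibres rose (median 1.01), against 4.28% of all genes. Tnni1 rose by 1.01, Tnnt1 by 1.27 and Atp2a2 by 2.05, while further Atp2a2 rows gave 1.80 and -0.44. Tnnc1 (0.27) and Tpm3 (-0.27) did not pass. The summed intensity of the 5 markers was 31453 to 35041 in the controls and 41853 to 55734 in the knockout animals. Of 9 general fibre markers 0 passed, with a median of -0.19 and summed intensities of 2924893 to 3633997 against 2335032 to 3342139. Of 6 brown adipocyte markers Ucp1 and Cidea rose, by 2.28 and 0.96. Pm20d1, Cox7a1, Elovl3 and Cox8b differed by -0.34, -0.27, -0.21 and 0.060 without passing, and the list median was -0.074. The summed intensity overlapped (197197 to 287227 against 202601 to 313986). Cox8b and Cox7a1, at 17.44 and 15.97 in the controls against 6.97 for Ucp1, make up most of that sum, so it says little about Ucp1 and Cidea. Cnn1, Col1a1 and Elovl3 were dim in both groups. The part of these shifts in the values of the mitochondrial ribosomal protein genes was not tested.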

How the data were processed

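The authors deposited 1 table of probe intensity per array (linear scale, 26423 rows, 24 arrays). The dye is not settled, because the labels name Cy3 in 1 field and Cy5 in the protocol. The scanner, background correction and array design version were not given in the sources used here. In the deposited intensity values every array had a median of 626, and up to 5.37% of an array's values lay at or below 0.

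Values under the 5th percentile of all values (38.8) were raised to it, log2 was taken, and the 3 hybridisations of an animal were averaged. Symbols were updated through a RefSeq gene table (GRCm38.p6): 18213 rows matched a current symbol, 2126 a synonym, 38 kept their name and 6046 had none. The row of highest mean stood for a gene. The test was that of limma 3.58.1 under R 4.3.3 (lmFit and eBayes, 4 against 4 animals, Benjamini-Hochberg over 17742 genes, threshold 0.05), tested on simulated data. The number of animals and arrays limits the precision. A ± with no other mark is an SE, and exact permutation tests are two-sided.

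Named with values are members past the threshold, members without overlap that differ by 0.3 or more, the 3 largest differences each way per subunit, genes whose rows differ in sign, dim members, Mrps18a to Mrps18c, Mrps30 and Mrps36. Of each list the rule names up to 4 genes past the threshold by smallest p, or the 2 of smallest p where none passed. Malsu1, Qrsl1, Pars2, Hsd17b10, Tfb2m, Tfam, Polrmt, Nrf1, Gabpb1, Ppargc1a, Mrps16, Mrpl13, Mrpl36, Mrpl50 and the choice of markers to name were taken after their values were seen. The members and lists were chosen with earlier results of these data known.

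Alternatives changed the normalization, the filter on dim rows, the use of a gene's rows, the floor, the variance model and the weights, took the animal as a random effect (alone or with the hybridisation number as a replicate block), used or split by the run of animal numbers, and left out each animal or hybridisation. A higher floor and a fit lacking the 2 arrays with the highest 5th percentile were chosen after seeing the data. Hybridisation numbers pair no animals across groups.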

Additional observations from a re-analysis of the deposited data

Results flagged for a closer look

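In 6 of the 134 groups of 4 animals (67 genes, both genotypes), 1 animal lay so far from the other 3 that its gap to the nearest of them passed Dixon's 95% limit. Chance flags about 1 in 20 such groups. Knockout 2 stood low in 3 genes: Mrpl9 at 13.259 (others 13.405 to 13.421), Mrpl28 at 14.572 (others 14.727 to 14.753) and Mrpl49 at 14.242 (others 14.485 to 14.525). Knockout 4 stood high in Mrpl43, at 13.845 (others 13.584 to 13.609). Among the controls, control 2 stood high in Mrpl24 at 14.701 (others 14.449 to 14.488), and control 3 low in Mrpl4 at 13.949 (others 14.063 to 14.082). None of these genes passed the test between the genotypes.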

How the results depend on the processing

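No member that passed the test changed direction under any alternative run. Of all 67 members, 8 changed sign under each of quantile normalization, cyclic loess and array weights, and 11 in the higher run of animal numbers. The count of members lower in the knockout (4) became 12 with animals as a random effect, 10 with the hybridisation number added as a replicate block, 7 with trended and robust variances, 9 with array weights, 7 without the 2 arrays of highest 5th percentile (chosen after seeing the data) and 0 in each run of animal numbers alone; it ranged from 1 to 5 when an animal or a hybridisation number was left out. The count of members higher (0) became 2 under quantile normalization (Mrpl1 and Mrps7), 3 under cyclic loess (with Mrps34 added), 2 with animals as a random effect and with the replicate block (Mrpl1 and Mrps11), and 1 with the filter on dim rows, array weights, the run as a block or a higher floor, also chosen after seeing the data (Mrpl1 each time); it ranged from 0 to 1 when an animal or hybridisation was left out. All called genes (1647; 759 higher and 888 lower) became 2569 under quantile normalization, 3149 with animals as a random effect, 2978 with the replicate block, 3609 with array weights, 62 in the lower run of animal numbers and 508 in the higher; leaving out an animal or hybridisation gave 945 (without knockout 3; 1062 without control 1) to 1693. Cyclic loess turned the split to 1309 higher and 1154 lower. The large minus small median (-0.032) became 0.059 in the higher run, -0.078 with the filter on dim rows and 0.009 with the mean over a gene's rows, and ranged from -0.061 to 0.026 without 1 animal or hybridisation. The large subunit median stayed at -0.21 to -0.063 and the small at -0.155 to -0.025 over all settings. With animals as a random effect the 3 hybridisations of an animal count as correlated samples (correlation 0.378). The runs and the fits without an animal hold fewer animals. The cause of these moves was not tested.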
